A study of Mus musculus with 14 samples.

Results

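The interferon alpha receptor chains Ifnar1 and Ifnar2 and the Janus kinases Jak1, Jak2 and Tyk2 were followed in mouse CD4+ T cells that received interferon alpha together with a JAK inhibitor. These 5 genes were taken by name from the 19752 genes that have a probe set carrying their symbol alone. Each of them has 1 such probe set, and all 5 passed the filter on dim probe sets, as did 11761 genes in all. Jak3 shares its probe set with another gene and was not analysed here.

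The cells came from spleens of 6 week old male C57BL/6 mice by negative selection, were activated with CD3/28 beads for 48 h, and were then cultured with IFNa at 100 U/ml and an inhibitor for 2 h or 8 h. All 14 samples share the activation and the interferon. Each of the 7 inhibitors was used at its IC80. Their target labels read JAK1, JAK1/2, PAN, TYK2 and JAK2, and a pair of inhibitors labelled JAK3 is called IFN.6226 and IFN.6228 here after the sample titles. The RNA was read on Affymetrix Mouse Gene 1.0 ST arrays, of which every inhibitor had 1 at 2 h and 1 at 8 h. No culture was repeated, so the p-values below measure no spread between repeated cultures. Those for times and single inhibitors rest on how the change from 2 h to 8 h varied over the inhibitors. Those for classes of inhibitors rest on the spread between inhibitors. Cells that lacked the inhibitor or the interferon were not analysed here.

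The interferon alpha receptor is a pair of chains, IFNAR1, to which the kinase TYK2 is bound, and IFNAR2, which carries JAK1. When interferon joins the chains, the kinases phosphorylate STAT proteins, which enter the nucleus and switch on antiviral genes. JAK2 does not serve this receptor, but works at others that T cells carry, among them the interferon gamma and interleukin 12 receptors. The inhibitors block the activity of the kinase proteins, whereas the arrays read the kinases' transcripts.

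The T cell markers Cd3e (mean log2 intensity 12.37) and Cd4 (11.82) were bright on all arrays. Pairs of arrays correlated with r of 0.980 to 0.998 across genes, which are not independent replicates, and array medians lay between 109 and 121. Upper quartiles of intensity differed more, from 398 (JAK1 inhibitor at 8 h) to 497 (JAK2 inhibitor at 8 h). The lowest mean r with arrays of the same time, 0.990, was that of the JAK1 inhibitor at 8 h. The mean log2 intensity of 5 skeletal muscle markers was 7.47 to 7.49 on this array and both JAK1/2 arrays, and 6.69 to 6.91 on the other 11.

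The members lie on 4 chromosomes, and the bases before their annotated starts are shown because 3 of the genes rose and the others fell between 2 h and 8 h, with the receptor chains, near neighbours on chromosome 16, going opposite ways. RefSeq promoters on build GRCm38.p6 were found for all 5. For Ifnar2, the chain that rose, and Jak2, the kinase that fell, the 250 bases before the start are printed whole, both from the plus strand (chr16:91372533-91372782 and chr19:29251553-29251802). For the other genes, 30 bases around a motif are printed: chr16:91485060-91485089 on the plus strand for Ifnar1, and chr4:101265303-101265332 for Jak1 and chr9:21131276-21131305 for Tyk2, both on the minus strand. Capitals mark the motifs found on either strand.
Ifnar2: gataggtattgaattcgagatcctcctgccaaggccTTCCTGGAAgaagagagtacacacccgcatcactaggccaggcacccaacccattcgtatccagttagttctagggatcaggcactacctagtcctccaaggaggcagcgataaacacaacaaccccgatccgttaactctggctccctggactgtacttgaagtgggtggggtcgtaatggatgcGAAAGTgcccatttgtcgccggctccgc
Jak2: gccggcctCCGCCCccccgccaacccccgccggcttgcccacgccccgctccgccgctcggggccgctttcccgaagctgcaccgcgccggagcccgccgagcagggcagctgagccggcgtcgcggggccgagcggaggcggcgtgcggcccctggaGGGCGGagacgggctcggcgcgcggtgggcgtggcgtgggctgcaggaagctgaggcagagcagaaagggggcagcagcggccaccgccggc
Ifnar1: cagtctttCCGGAAGTggGGGCGGagcgtg
Jak1: gcagcttcTGACGTCAcgggggctgggccg
Tyk2: gggacggaccgcagccaaagGCATGCGCac

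The 250 bases before each start were searched on both strands for 8 motifs, and 32851 windows of the same length gave the background. The core of the interferon-stimulated response element, written as GAAA, any 2 bases and GAAA, was in 0 of the 5 windows and in 2.98% of all. The STAT motif TTCNNNGAA was found in Ifnar2 alone, 214 bases before the start, and in 7.02% of all windows, and GAAAGT, a shorter interferon regulatory factor motif, in Ifnar2 and Ifnar1 and in 12.3% of all. The GC box GGGCGG was found in every member but Ifnar2 and in 32.7% of all windows, and CCAAT in Jak1 and Tyk2 and in 33.8%. The longer motifs in the printed stretches were rarer, with CCGGAAGT (the ETS motif) in 2.88% of windows, TGACGTCA (the cyclic AMP response element) in 1.55% and GCATGCGC (the NRF1 motif) in 2.26%. No motif occurrences overlapped each other in the members. The Jak2 window was 80.8% G and C with 37 CpG pairs, against medians of 52.4% and 6 over all windows, and the Ifnar2 window 54.0% with 11. A match describes these letters only and is not evidence of binding.

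From 2 h to 8 h the 2 receptor chains changed in opposite directions, Ifnar2 rising by 1.40-fold and Ifnar1 falling by 1.17-fold. Among the kinases Jak1 and Tyk2, which serve this receptor, rose by 1.24-fold and 1.27-fold, and Jak2 fell by 1.30-fold. Each of the 5 changes had the same sign under 7 of 7 inhibitors and passed limma's test at an adjusted p of 0.05, as did 49.6% of all genes tested (21.4% higher and 28.2% lower at 8 h). With nearly as many genes changing as not, the count of members called is no result about these genes. How many of all genes had the same sign under 7 of 7 inhibitors was not counted, so that agreement is no result about them either. The differences between times hold for cells kept with interferon and an inhibitor throughout, so time since activation, time with interferon and time with inhibitor cannot be told apart.

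Ifnar2, the long signalling chain that carries JAK1, had log2 intensities at 2 h of 10.15 at the lowest, 10.26 at the median and 10.27 at the highest, and at 8 h of 10.65, 10.69 and 10.83. Every 8 h array was above every 2 h array, and the spread within a time was small beside the step between them. Its mean rose from 10.24 ± 0.04 to 10.73 ± 0.08 (SD, n = 7 each), a log2 difference of 0.49 (SE 0.04, 95% interval 0.40 to 0.58, limma adjusted p = 5.15e-07). The change ranged from 0.40 under the JAK1 inhibitor to 0.56 under IFN.6228. Of all genes tested, 88.3% had a smaller absolute change than Ifnar2, and the median absolute change was 0.17.

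Ifnar1, the chain that binds TYK2, had log2 intensities of 10.58, 10.80 and 10.83 (lowest, median and highest) at 2 h and of 10.40, 10.52 and 10.65 at 8 h. These ranges overlapped, because the JAK2 inhibitor's 2 h array (10.58) was lower than the highest 8 h array, that of IFN.6228 (10.65). Within each inhibitor the 8 h value was nonetheless the lower one. The mean fell from 10.75 ± 0.09 to 10.53 ± 0.07 (SD, n = 7 each), a fall of 0.22 on the log2 scale (SE 0.04, limma adjusted p = 0.000771), with changes from -0.28 under the TYK2 inhibitor to -0.07 under the JAK2 inhibitor. Of all genes tested, 61.7% had a smaller absolute change.

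Because both chains were read on the same arrays, their changes can be set against each other within an inhibitor. The change of Ifnar2 exceeded that of Ifnar1 by 0.71 ± 0.10 on the log2 scale (SD, n = 7), from 0.54 to 0.81. This difference is free of any shift shared by all genes of an array. Its sign in 7 of 7 inhibitors follows from the rise of Ifnar2 and the fall of Ifnar1 under each. The exact two-sided sign-flip p of 0.0156, the smallest that 7 pairs allow, was therefore fixed by those directions and adds nothing to them. The difference compares changes only, since intensities of different probe sets do not say which chain was more abundant.

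Jak1, the kinase bound to IFNAR2 and to many cytokine receptors, had log2 intensities of 11.74, 11.83 and 11.88 (lowest, median and highest) at 2 h and of 11.99, 12.14 and 12.19 at 8 h. The ranges did not overlap. The mean rose from 11.82 ± 0.05 to 12.12 ± 0.07 (SD, n = 7 each), a log2 difference of 0.31 (SE 0.04, 95% interval 0.23 to 0.39, limma adjusted p = 1.33e-05). The JAK1 inhibitor had the lowest 8 h array of Jak1 (11.99) although at 2 h its array (11.84) was above the median, so its rise of 0.15 was the smallest, while that under the JAK2 inhibitor, 0.43, was the largest.

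Tyk2, the kinase bound to IFNAR1, had log2 intensities of 8.53, 8.69 and 8.79 (lowest, median and highest) at 2 h and of 8.83, 9.02 and 9.19 at 8 h. Again all 8 h arrays were above all 2 h arrays, but the inhibitors spread more widely than for Jak1. The mean rose from 8.67 ± 0.10 to 9.02 ± 0.14 (SD, n = 7 each), a log2 difference of 0.35 (SE 0.06, 95% interval 0.21 to 0.49, limma adjusted p = 0.000394). The JAK2 inhibitor, lowest at 2 h (8.53) and next to highest at 8 h (9.18), had the largest rise, 0.65, and IFN.6226 the smallest, 0.21.

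Jak2, the kinase of the interferon gamma and interleukin 12 receptors, had log2 intensities of 10.91, 11.01 and 11.14 (lowest, median and highest) at 2 h and of 10.44, 10.64 and 10.78 at 8 h. Here every 8 h array was below every 2 h array. The mean fell from 11.01 ± 0.08 to 10.63 ± 0.12 (SD, n = 7 each), a fall of 0.38 on the log2 scale (SE 0.04, limma adjusted p = 6.34e-06). The fall was smallest under the JAK2 inhibitor (-0.24) and largest under the JAK1 inhibitor (-0.47). Ranges of 8 h and 2 h values that did not overlap were seen in 8.92% of all genes with 8 h higher, where Ifnar2, Jak1 and Tyk2 belong, and in 15.6% with 8 h lower, where Jak2 belongs.

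**Figure D1:**
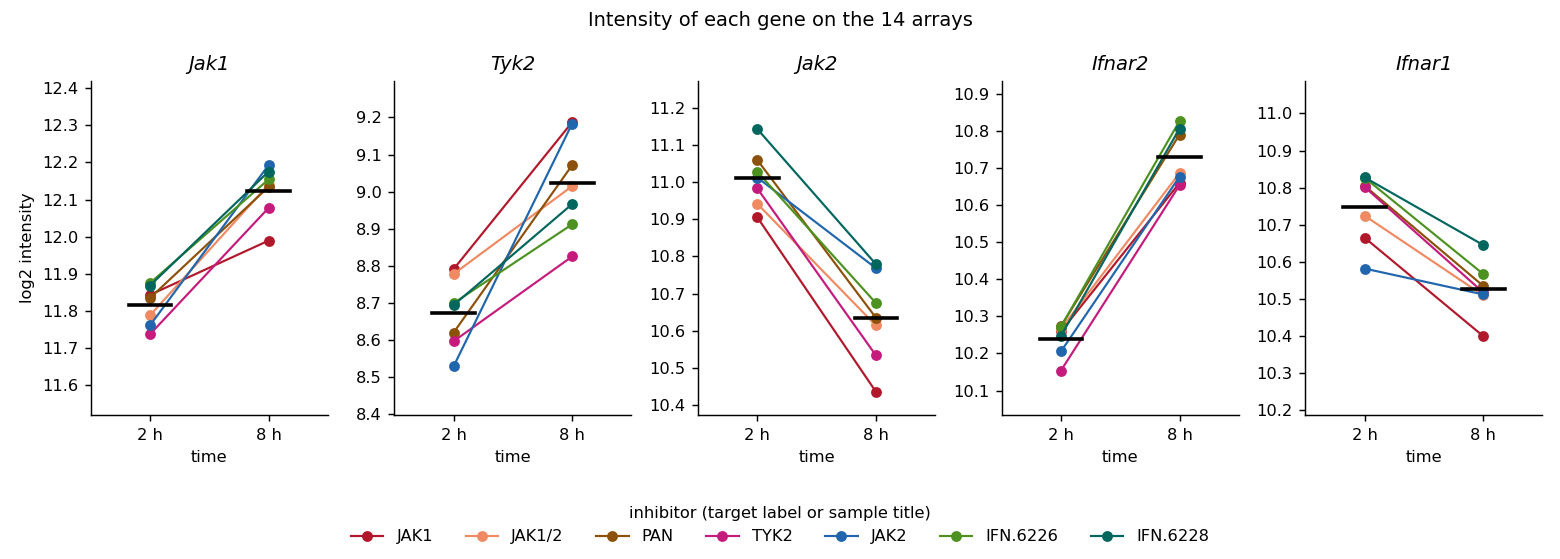
Log2 intensity (y axis, each panel spanning the same number of log2 units around its own centre) of the 5 genes at 2 h and 8 h (x axis). Each line joins the 2 arrays of 1 inhibitor and the black bars are means of 7 arrays. All lines of Jak1, Tyk2 and Ifnar2 go up and all lines of Jak2 and Ifnar1 go down, with mean changes of 0.31, 0.35, 0.49, -0.38 and -0.22.

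Within the same arrays the change of Jak1 exceeded that of Jak2 by 0.68 ± 0.06 on the log2 scale (SD, n = 7) and that of Tyk2 exceeded that of Jak2 by 0.73 ± 0.15. Both differences were positive under 7 of 7 inhibitors, which follows from the rises of Jak1 and Tyk2 and the fall of Jak2 under each. The exact two-sided sign-flip p of 0.0156 for each, the smallest possible, was thus fixed by those directions. The changes of Jak1 and Tyk2 differed by -0.04 ± 0.16, positive under 4 of 7 inhibitors (exact sign-flip test, p = 0.484), so no difference between the kinases of this receptor was detectable. The JAK2 inhibitor had the largest rise of Jak1 and Tyk2 and the smallest fall of Jak2 and Ifnar1, and the JAK1 inhibitor the smallest rise of Jak1 and Ifnar2 and the largest fall of Jak2. The 8 h arrays of these inhibitors also had the highest (JAK2, 497) and lowest (JAK1, 398) upper quartile of intensity, whose part was not tested. With 1 array per inhibitor and time, whether an inhibitor's change differs from the others' cannot be tested.

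Ifnar2 and Ifnar1 lie on mouse chromosome 16 with Il10rb between them and Ifngr2 next to Ifnar1, a cluster of cytokine receptor genes, in the gene order of the RefSeq annotation. Ifnar2 was the gene of this cluster that rose. Il10rb, a chain of the interleukin 10 receptor that binds TYK2, had a log2 difference of -0.11 (SE 0.09, limma adjusted p = 0.314) and was higher at 8 h under 4 inhibitors and lower under 3. Ifngr2, the interferon gamma receptor chain that binds JAK2, fell by 0.79 on the log2 scale (SE 0.05, limma adjusted p = 1.80e-08) under 7 of 7 inhibitors. Tmem50b, the next gene, was named after its value was seen and also fell (-0.70, limma adjusted p = 4.90e-08).

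**Figure D2:**
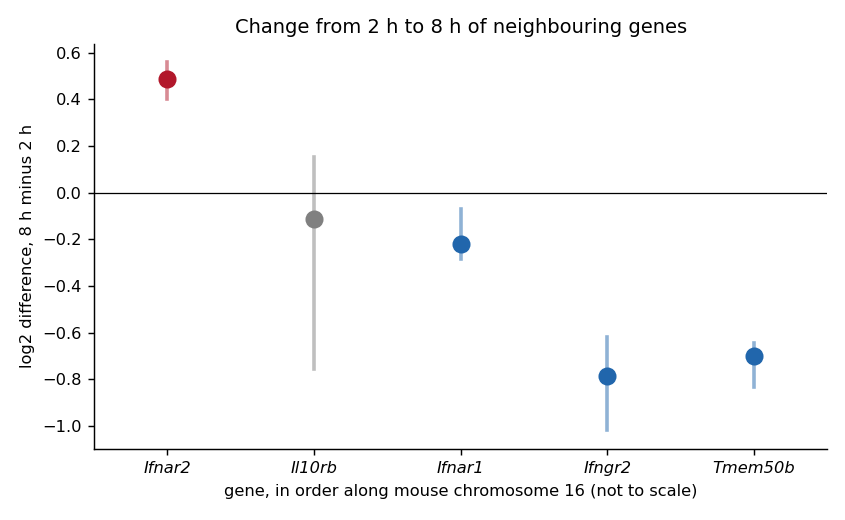
Log2 difference between 8 h and 2 h (y axis) of 5 neighbouring genes in their order along mouse chromosome 16 (x axis, not to scale). Points are limma estimates and vertical lines run from the lowest to the highest change over the 7 inhibitors. Red marks a gene that was higher at 8 h at an adjusted p of 0.05, blue lower and grey not called. Ifnar2 is above 0 (0.49), Ifnar1 (-0.22), Ifngr2 (-0.79) and Tmem50b (-0.70) are below it, and the line of Il10rb crosses 0.

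The partners of the receptor were read from a list of signal carriers and brakes, the STAT proteins and IRF9 with the phosphatases, SOCS proteins and ubiquitin ligases that restrain the pathway. Of its 32 symbols 29 were tested. Between 2 h and 8 h 11 of the 29 rose and 11 fell, where 21.4% and 28.2% of all genes did, with a median log2 difference of -0.08 against 0.02 over all genes. Of the carriers, Stat2 was higher at 8 h by 0.42 (SE 0.10, limma adjusted p = 0.00304, 6 of 7 inhibitors), Irf9 by 0.20 (adjusted p = 0.00493) and Stat4, the STAT of interleukin 12, by 0.37 (adjusted p = 1.20e-05), while Stat5a (-0.53) and Stat3 (-0.21) fell. Of the brakes, Usp18, which binds IFNAR2 and keeps JAK1 from signalling, rose by 1.06 on the log2 scale (SE 0.15, adjusted p = 3.98e-05, 7 of 7).

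Of the SOCS genes of the list 3 fell and 1 was not called. Cish (log2 difference -1.48, SE 0.10) and Socs2 (-1.47, SE 0.06), both feedback genes of STAT5, and Socs1 (-0.72, SE 0.06), which blocks the catalytic site of JAK kinases, each fell under 7 of 7 inhibitors. Socs3 had a log2 difference of -0.09 (limma adjusted p = 0.443) and was higher at 8 h under 4 of 7 inhibitors. Among other proteins of the list, Prkd2, a kinase that starts the uptake of IFNAR1 from the membrane, rose by 0.70 (SE 0.06). The ubiquitin ligase Cbl rose by 0.45 (SE 0.04), and Prmt1, an arginine methyltransferase, fell (-0.83, SE 0.07). The ligases Btrc (0.13) and Cblb (-0.09) were not called (limma adjusted p = 0.141 and 0.158). Btrc was called after quantile normalization (0.21, adjusted p = 0.00146) or cyclic loess (0.19, 0.00200) and without the JAK1 inhibitor (0.19, 0.00833). The phosphatases Ptpn1, Ptpn2 and Ptpn11, of which Ptpn1 acts on TYK2 and JAK2, fell (-0.26, -0.56 and -0.25), whereas Ptpn6 rose by 0.21. Without the inhibitor term the calls of Stat2 (adjusted p = 0.163), Irf9 (0.169) and Usp18 (0.0675) ended.

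Other chains of cytokine receptors that signal through JAK kinases, not all of which bind a kinase themselves, formed a list of 27, of which 17 were tested. Of these 5 rose and 3 fell from 2 h to 8 h (21.4% and 28.2% of all genes), with a median log2 difference of 0.07. Il9r rose by 0.47 (SE 0.07), Il10ra by 0.40 (SE 0.06), Il4ra by 0.37 (SE 0.05) and Il27ra by 0.30 (SE 0.06), each under 7 of 7 inhibitors, and all these chains bind JAK1. Il7r, another JAK1 chain, rose by 0.14, a call that ended without the inhibitor term (adjusted p = 0.151) or after median centring (0.0909). The chains that fell were Il12rb2, the JAK2 chain of the interleukin 12 receptor (-1.35, SE 0.08), Ifngr2, also a JAK2 chain (-0.79), and Il12rb1, the TYK2 chain (-0.38, SE 0.06). Ifngr1, which pairs with Ifngr2 and binds JAK1, was not called (-0.09, limma adjusted p = 0.135), though it was without the JAK2 inhibitor (-0.12, adjusted p = 0.0342). Il2rb (0.03), Il21r (-0.04) and Il6st (0.09), which also bind JAK1, and Epor (0.15), which binds JAK2, were not called. Il6st was called, however, after quantile normalization (0.13, limma adjusted p = 0.00367) or cyclic loess (0.14, 0.00278) and without the JAK1 inhibitor (0.12, 0.0122). Epor was called without the JAK2 inhibitor (0.22, limma adjusted p = 0.00801).

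**Figure D3:**
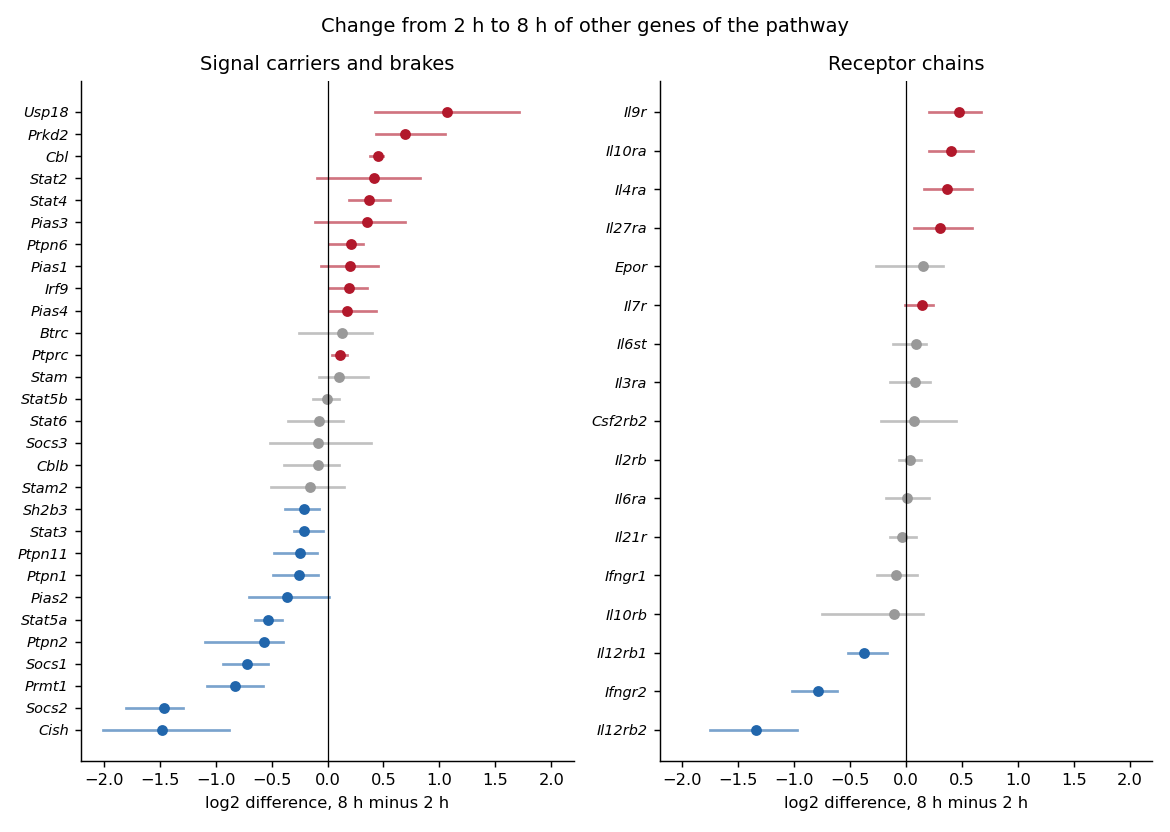
Log2 difference between 8 h and 2 h (x axis) of the 29 tested signal carriers and brakes and of the 17 tested receptor chains (y axis, ordered by the difference). Points are limma estimates, lines run from the lowest to the highest change over the 7 inhibitors, and red, blue and grey mark genes called higher, called lower and not called at an adjusted p of 0.05. Usp18 (1.06) is at the top and Cish (-1.48) at the bottom of the first panel, and Il9r (0.47) and Il12rb2 (-1.35) are at the ends of the other.

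Cell markers also moved with time. The summed linear intensity of 5 CD4 T cell markers was 17293 to 18834 at 2 h and 21536 to 22418 at 8 h, that of 3 B cell markers 1131 to 1307 and 1486 to 1813, and that of 2 CD8 T cell markers 501 to 563 and 646 to 771. The sum of 3 NK cell markers was at most 156 at 2 h and 166 to 223 at 8 h. Sums for macrophages and monocytes (270 to 378 against 296 to 388, 5 genes), granulocytes (196 to 229 against 216 to 261, 4 genes) and dendritic cells (160 to 180 against 162 to 199, 3 genes) overlapped between the times, and 1, 1 and 0 of their genes passed the filter. No defining marker is at 0 on this intensity scale, which has no true zero. The part of these shifts in the changes of the 5 genes was not tested, and in such bulk samples fewer cells of a type and less RNA per cell cannot be told apart.

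The next question was whether the inhibitors themselves differed in the transcripts of the kinases they target or of the receptor. None of the 5 genes was called for any of the 7 inhibitors against the mean of the other 6 (0 of 5 in each, limma, adjusted p of 0.05). The share of all genes called was 7.77% for the JAK1 inhibitor, 0.0765% for JAK2, 0.0085% for JAK1/2 and 0% for IFN.6226, IFN.6228, PAN and TYK2, for which 375, 811, 38 and 569 genes had an unadjusted p under 0.05. Among the members only Jak2 had such an unadjusted p, under the JAK1 inhibitor and under IFN.6228.

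For Jak2 the values under the JAK1 inhibitor were the lowest at both times, 10.91 against 10.94 to 11.14 on the other 2 h arrays and 10.44 against 10.53 to 10.78 on the other 8 h arrays. The additive fit put the inhibitor 0.18 below the others (log2 difference -0.18, SE 0.06, 95% interval -0.31 to -0.05, limma adjusted p = 0.0898), with -0.12 (adjusted p = 0.543) without its 8 h array, -0.08 after quantile normalization and -0.09 after cyclic loess. IFN.6228 had the highest Jak2 value at both times, 11.14 and 10.78, with a log2 difference of 0.16 (SE 0.06, 95% interval 0.03 to 0.29, adjusted p = 0.681). Both differences missed the threshold after adjustment over all genes.

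Tyk2 had its highest value at both times under the JAK1 inhibitor, 8.79 and 9.19, although the nearest arrays were close (JAK1/2 at 2 h, 8.78, and JAK2 at 8 h, 9.18). The log2 difference from the other inhibitors was 0.16 (SE 0.09, 95% interval -0.03 to 0.36, limma adjusted p = 0.272). It was called after quantile normalization (0.27, adjusted p = 0.0277) and after cyclic loess (0.26, adjusted p = 0.0335) but not on the deposited scale. These scalings also move the JAK1 inhibitor's split over all genes from 113 higher and 801 lower to 752 and 763 (quantile) or 710 and 759 (cyclic loess). The TYK2 inhibitor had the lowest mean of Tyk2 over both times (8.71), with a difference of -0.16 (95% interval -0.36 to 0.04, adjusted p = 1.00) from the others.

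Ifnar1 was lowest under the JAK1 inhibitor at 8 h (10.40 against 10.51 to 10.65 on the other arrays) and next to lowest at 2 h (10.67), a log2 difference of -0.12 (95% interval -0.26 to 0.01, limma adjusted p = 0.236) that was -0.03 after quantile normalization or cyclic loess. For Ifnar2 and Jak1 the differences of single inhibitors from the others lay between -0.09 and 0.08 and between -0.07 and 0.06. The JAK1 inhibitor's 8 h array, with the lowest Jak2 and Ifnar1 and the highest Tyk2 of its time, is also 1 of the 3 on which the skeletal muscle markers were high (mean log2 intensity 7.49), and their part in these values was not tested.

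**Figure D4:**
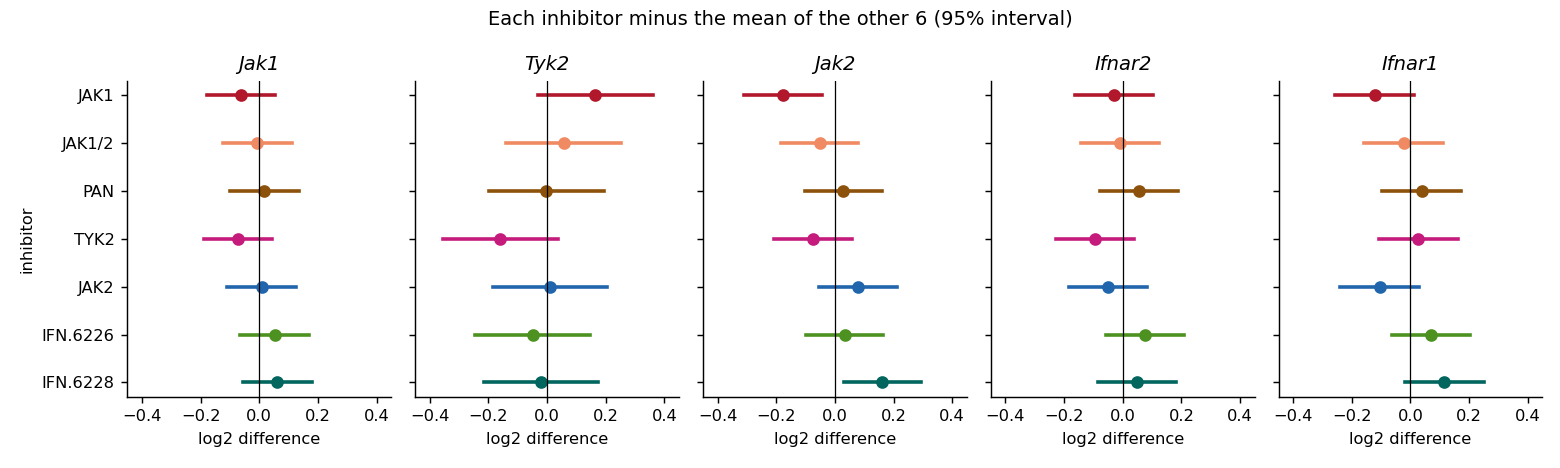
Log2 difference (x axis) between each inhibitor and the mean of the other 6 (y axis, 1 row per inhibitor) for the 5 genes, from the additive fit of inhibitor and time over 14 arrays. Points are estimates and bars 95% intervals, unadjusted for the number of genes. The intervals include 0 except for Jak2 under the JAK1 inhibitor (-0.18) and IFN.6228 (0.16).

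Ordered by the mean of both times, IFN.6228 was highest for Jak1 (12.02), Jak2 (10.96) and Ifnar1 (10.74), IFN.6226 for Ifnar2 (10.55) and JAK1 for Tyk2 (8.99). The lowest were TYK2 for Jak1 (11.91), Tyk2 (8.71) and Ifnar2 (10.40) and JAK1 for Jak2 (10.67) and Ifnar1 (10.53). From highest to lowest the inhibitors spanned 0.11 log2 units for Jak1, 0.29 for Jak2, 0.28 for Tyk2, 0.20 for Ifnar1 and 0.15 for Ifnar2. No neighbours in any of these orders differed by more than the 95% half-width of a difference between 2 inhibitors, which was 0.15 to 0.26 (0 of 6 gaps for each gene). The widest gap was 0.09, for Tyk2 between IFN.6226 and TYK2. Gaps between neighbours are small in any such order. The span from highest to lowest did exceed the gene's half-width for Jak2 (0.17), Tyk2 (0.26) and Ifnar1 (0.18), but not for Jak1 (0.15) or Ifnar2 (0.17). These extremes were picked from the order, so this is no test of a difference.

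The 4 inhibitors aimed by their labels at JAK1 or TYK2, the kinases of this receptor (JAK1, JAK1/2, PAN and TYK2, with PAN taken to include all JAK kinases), were compared with the 3 inhibitors labelled JAK2 or JAK3 alone. No member was called at 2 h, at 8 h, over both times or in the change between them (0 of 5 in each, limma), where 0.697%, 0%, 0% and 0.102% of all genes were called. At 8 h 1838 of 11761 genes and 1 member, Jak2, had an unadjusted p under 0.05, and over both times 1234 genes and again Jak2.

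At 8 h Jak2 was at 10.44 (JAK1), 10.53 (TYK2), 10.61 (JAK1/2) and 10.64 (PAN) in the former class and at 10.67 (IFN.6226), 10.77 (JAK2) and 10.78 (IFN.6228) in the latter. The classes did not overlap, although PAN and IFN.6226 nearly met. The means were 10.55 ± 0.09 (SD, n = 4) and 10.74 ± 0.06 (SD, n = 3), a log2 difference of -0.19 (exact two-sided permutation test, p = 0.0571, the smallest that 35 arrangements allow), where the median difference of all genes was -0.08 and 13.7% of genes were lower without overlap. The difference was -0.10 after quantile normalization and -0.09 after cyclic loess. At 2 h the classes overlapped, with a difference of -0.09 (exact permutation p = 0.229). Over both times they did not overlap, with a difference of -0.14 (exact permutation p = 0.0571), as in 8.28% of all genes, and of -0.09 after cyclic loess.

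Jak1 at 8 h was at 11.99 (JAK1), 12.08 (TYK2), 12.13 (PAN) and 12.14 (JAK1/2) against 12.15 (IFN.6226), 12.18 (IFN.6228) and 12.19 (JAK2). These values did not overlap either, with the gap between JAK1/2 and IFN.6226 very small. The means of 12.09 ± 0.07 (SD, n = 4) and 12.17 ± 0.02 (SD, n = 3) differed by -0.09 (exact permutation p = 0.0571), about the median difference of all genes. The difference was -0.05 after quantile normalization, -0.03 after cyclic loess, -0.14 after median centring and -0.06 without the JAK1 inhibitor. Tyk2, Ifnar1 and Ifnar2 overlapped between the classes at each time, with 8 h differences of 0.00, -0.08 and -0.07.

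Each kinase transcript was also read against the inhibitors whose label names that kinase, over the mean of both times. Jak1 was at 11.96 ± 0.03 (SD, n = 3) with the inhibitors naming JAK1 and at 11.98 ± 0.05 (n = 4) with the others, a log2 difference of -0.03 (exact two-sided permutation test, p = 0.514). Jak2 was at 10.84 ± 0.06 (n = 3) with those naming JAK2 and at 10.81 ± 0.12 (n = 4) with the others, a difference of 0.03 (exact permutation p = 0.743). Tyk2 was at 8.78 ± 0.10 (n = 2) with those naming TYK2 and at 8.88 ± 0.07 (n = 5) with the others, a difference of -0.10 (exact permutation p = 0.286, where 21 arrangements allow no p below 0.0952). All 3 pairs of groups overlapped. In limma's fits of these groupings 0 of 5 members and 0% of all genes were called, with 2283, 430 and 41 genes at an unadjusted p under 0.05 for JAK1, JAK2 and TYK2 and 0 members.

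Other genes of the pathway were called between inhibitors where the members were not. Under the JAK1 inhibitor 5 of the 29 signal carriers and brakes were lower and 0 higher, where 801 and 113 of all 11761 genes were. The list median was -0.07 against -0.05 for all genes. The largest differences were those of Usp18 (-2.43, SE 0.21), Stat2 (-1.12, SE 0.14) and Irf9 (-0.62, SE 0.07), with limma adjusted p of 1.25e-05, 0.000367 and 0.000139. Socs1 (-0.41) lost its call under quantile normalization and cyclic loess, and Socs2 (-0.35) under these and most other alternatives. Of the 17 receptor chains, Il10ra (-0.41), Il4ra (-0.38) and Ifngr2 (-0.29) were lower and Il27ra (0.29) higher. Without the JAK1 inhibitor's 8 h array these calls ended, with differences of -0.29, -0.38, -0.15 and 0.35. That fit leaves 1 array of this inhibitor, and the differences of Il4ra and Il27ra did not shrink in it. The call of Ifngr2 ended also without the TYK2 inhibitor (limma adjusted p = 0.0698) or without the variance trend (0.0551). That of Il27ra ended without IFN.6226, IFN.6228, PAN or TYK2 (0.0638 to 0.125). It ended as well after median centring (0.120), without a filter (0.0706) and without the variance trend (0.0773).

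Under the JAK2 inhibitor 3 of the 29 signal carriers and brakes were higher, Cish (1.06, SE 0.14), Socs2 (0.79, SE 0.09) and Socs1 (0.63, SE 0.09), with limma adjusted p of 0.0211, 0.00781 and 0.0262. Of all 11761 genes 9 were higher and 0 lower. The calls of Cish and Socs1 ended after quantile normalization (adjusted p = 0.0894 and 0.156) and cyclic loess (0.0944 and 0.109). Of the receptor chains 0 of 17 were called, with Il4ra nearest the threshold (0.43, SE 0.08, limma adjusted p = 0.0657). An unadjusted p under 0.05 was seen for 6 of the 17 chains and for 547 of all 11761 genes. The TYK2 inhibitor also had 0 of the 17 chains called, with Il7r nearest the threshold (-0.41, SE 0.06, limma adjusted p = 0.0596). For that inhibitor 7 of the 17 chains and 569 of all genes had an unadjusted p under 0.05. Between the classes at 2 h, Usp18 (-1.99, SE 0.36) and Stat2 (-1.12, SE 0.17) were lower in the JAK1 and TYK2 class, with limma adjusted p of 0.0188 and 0.00592. Robust moderation ended both calls (adjusted p = 0.792 and 0.198). That of Usp18 ended also after quantile normalization (-1.98, adjusted p = 0.0536) or cyclic loess (-1.98, 0.0565), with the JAK3 inhibitors averaged (-2.02, 0.116), and without IFN.6226 (0.0799), IFN.6228 (0.181) or JAK2 (0.172). That of Stat2 ended without IFN.6228 (0.0959) or JAK2 (0.0777). The change of Usp18 between times was larger by 1.06 in that class (SE 0.10, adjusted p = 0.000483). The 5 members differed between the classes at 2 h by -0.09 (Jak2) to 0.06 (Tyk2).

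Genes with the most similar course over the 14 arrays were found by Pearson's r, which here mostly reads the shared step between times. Nearest to Jak1 were Pitpnc1 (r = 0.985), Sidt1 (0.983) and Dock11 (0.983), and nearest to Tyk2 were Rmnd5b (0.979), Sit1 (0.976), an adaptor of T cell receptor signalling, and Abca7 (0.974). Jak2 was most like Ipo5 (0.983), a nuclear import receptor, Eea1 (0.982), of early endosomes, and Fam185a (0.979). Ifnar2 was most like Cd96 (0.987), a receptor of T and NK cells, Ift80 (0.985) and Hpcal1 (0.985). Ifnar1 had the lowest top values, with Bpgm (0.953), Pkm (0.946), a pyruvate kinase, and 2610301B20Rik (0.943), and its r with Bpgm was 0.785 after quantile normalization and 0.803 after cyclic loess. The genes like Jak1, Tyk2 and Ifnar2 had log2 differences between times of 0.40 to 0.84, and those like Jak2 and Ifnar1 of -1.02 to -0.36.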

How the data were processed

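Transcripts of CD4+ T cells from mouse spleen were measured on 14 arrays, 2 per inhibitor. The deposited values are 1 linear intensity per probe set and array (4.78 to 22879), made by the authors with Affymetrix Power Tools and RMA, per the submitters' processing notes. Versions, and which arrays were normalized together, are not given in the sources used here. Of 24922 probe sets, 21425 carried 1 symbol and were used. All values were put on the log2 scale, and a gene was tested if the log2 mean of its brightest such probe set reached their 40th percentile (6.29). Symbols were checked against RefSeq names (21347 found, 0 changed).

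Times and single inhibitors were compared in 1 additive limma fit of inhibitor and time (trend=TRUE, 6 residual degrees of freedom), and classes on 1 value per inhibitor (5 residual degrees of freedom). Adjusted p are Benjamini-Hochberg values over the 11761 genes of a comparison. Exact permutation and sign-flip tests were two-sided. Tools were limma 3.58.1 in R 4.3.3 with statmod 1.5.0, and scipy 1.17.1, pandas 2.3.3, matplotlib 3.10.9 and numpy 2.4.6 under Python 3.11.15, and the fits were tested on simulated data.

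Named are the 5 members, the 3 genes most like each of them, and per comparison up to 4 called genes of each list either way. Where no gene of a list was called, the 2 of smallest p were picked, but most of these are not given here. Other list genes and Tmem50b were named after their values were seen. The members and lists were chosen with earlier results of these data known. Alternatives were other scalings and filters, an offset of 50, no inhibitor term, robust moderation, no variance trend, averaging the probe sets of a gene, the JAK3 inhibitors averaged, the PAN inhibitor left out, and each inhibitor or the JAK1 8 h array left out. The number of arrays limits the precision.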

Additional observations from a re-analysis of the deposited data

Results flagged for a closer look

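At 2 h the TYK2 inhibitor's array had an Ifnar2 log2 intensity of 10.15, apart from the JAK1, JAK1/2 and PAN inhibitors, of which the nearest was at 10.26. The gap was 0.884 of the range of these 4 arrays, and such a gap is met by chance in about 1 in 20 groups. Groups of arrays were screened by gene, time and set of inhibitors, and this gap was the only 1 flagged. Across many groups 1 such gap can arise by chance, so it is no result about Ifnar2 or the TYK2 inhibitor. The TYK2 array was also the lowest of all 7 at that time, with the JAK2 array (10.21) the nearest. At 8 h it was again the lowest (10.65), next to the JAK1 array (10.66).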

How the results depend on the processing

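The changes of the 5 members between times kept their direction and call in 90 of 90 values over 18 alternatives (Ifnar1, the smallest, from -0.26 to -0.17). Of 1160 member values between inhibitors, 1158 kept their side of the threshold, the exceptions being Tyk2 under the JAK1 inhibitor after quantile normalization and cyclic loess (1 member called in each). Counts over all genes moved more, and the causes were not tested. For the JAK1 inhibitor (914 genes) they were 1515 after quantile normalization, 1469 after cyclic loess, 550 after median centring and 232 without its 8 h array. For JAK2 (9) they were 1, 1, 26 and 81 in that order, and 4 without the variance trend. The change between classes (12) had 23, 26 and 6 genes under these scalings, 7 with the offset of 50 and 2 with the JAK3 inhibitors averaged. The classes at 2 h (82) had 46 with robust moderation and 34 with JAK3 averaged. TYK2 (0) had 2 after quantile normalization, cyclic loess or the 60th percentile filter and 3 without the JAK1 8 h array. Median centring gave 1 for IFN.6226, 13 for IFN.6228 and 2 for JAK1/2, and leaving out that array 6, 25 and 6. JAK1/2 (1) had 2 without a filter and 0 at the 60th percentile, the class means 1 without a filter, and JAK1-naming 605 without PAN. Leaving out each inhibitor in turn gave 4987 to 6434 for time, 360 to 1528 for JAK1, 4 to 51 for JAK2, 0 to 16 for JAK1/2, 0 to 2 for IFN.6226, 0 to 11 for IFN.6228, 0 to 7 for TYK2, 28 to 106 for classes at 2 h, 0 to 98 for their means, 2 to 41 for their change, 0 to 605 for JAK1-naming and 0 to 63 for JAK2-naming. By replicate number, no paired analysis was possible because every title carries the number 1. The arrays of an inhibitor at the 2 times were paired in the additive fit and the sign-flip tests. Signal over background limits dim genes, which the filter left out.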
